A study of Mus musculus with 12 samples.

Results

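Intratumoral injection of D-PDB, the polymer carrier of NanoISD without its DNA, was compared with injection of PBS in B16.F10 tumors, gene by gene over the 43 immune genes of a NanoString panel. B16.F10 is a murine melanoma cell line, and the tumors were grown from 1000000 cells placed under the skin of female C57BL/6J mice that were 6 to 8 weeks old. When a tumor reached about 200 mm3 it received a single injection of 100 µL, holding either PBS (negative control) or D-PDB in the amount that carries 2 µg of DNA in NanoISD (vehicle control), and it was harvested 6 hours later. The comparison rests on 4 D-PDB-treated and 4 PBS-treated tumors, out of 12 tumors in the series. The remaining 4 tumors received NanoISD, the same polymer loaded with DNA, and they enter the fit of the spread and a side-by-side comparison near the end. The members are the 43 genes that remain of 48 once the 5 genes used for scaling are set aside (*Tbp*, *Rpl19*, *Hdac3*, *Gusb*, and *Gapdh*). Each treatment was sampled by tumors that the labels number as replicates of biological samples, in 1 transplanted line at 1 time point.

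D-PDB is a cationic, endosome-destabilizing block polymer. It complexes nucleic acid, enters cells by endocytosis, and disrupts the endosomal membrane as the compartment acidifies. A vehicle control of this kind shows what the membrane-active polymer does to the tissue without its DNA cargo. The DNA acts through cGAS, the cytosolic DNA sensor upstream of STING. In the paper, free D-PDB also had a small interferon reporter activity, which was lost in cells without cGAS. The control therefore does not separate polymer effects from cGAS effects. The panel measures secreted signals. Most of its genes encode chemokines, which draw leukocytes through receptors such as CXCR2 on neutrophils, CCR2 on monocytes, and CXCR3 on activated T cells and NK cells, and the rest encode cytokines, growth factors, and interferons.

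Each value is a log2 fold change of a gene in a tumor, which the authors scaled to the house-keeping genes and then to the average PBS-treated tumor, so that the PBS mean is 0 by construction. A value of 1 is thus a 2-fold higher and a value of -1 a 2-fold lower level than that mean. The values carry no barcode counts, so the depth behind them is unknown, and they show neither how abundant a transcript was nor how it compared with another gene. The whole tumor was homogenized, and in such bulk RNA a smaller number of cells of a type and less RNA per cell cannot be told apart. The panel measures 0 of 29 marker genes of melanoma cells, leukocyte classes, endothelium, and fibroblasts, so neither the tissue identity nor its infiltrate could be examined. Of the house-keeping genes, *Tbp* was between 0.12 and 0.19 in the D-PDB-treated tumors and between -0.07 and 0.13 in the PBS-treated tumors, while *Gapdh* was lower by 0.15 in the mean, and the part of these shifts in the results was not tested beyond leaving out each house-keeping gene in turn, which kept the median difference over the panel between 0.21 and 0.29. The tumor was taken as the replicate. Each gene was tested in a limma fit that held the 12 tumors of the 3 treatments, p-values were adjusted over the 43 genes by the Benjamini-Hochberg method, and the threshold was 0.05.

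No gene of the panel passed this threshold after D-PDB. The count was 0 of 43 higher (0%) and 0 of 43 lower (0%) at an adjusted p of 0.05 in limma, with a smallest adjusted p of 0.630. At an unadjusted p of 0.05, 1 gene was higher (2.33%), the neutrophil chemokine *Cxcl5*, and 0 were lower (0%). A two-sided exact permutation test per gene, whose smallest possible p with 4 tumors in each group is 0.0286, gave 0 genes higher and 1 lower at an unadjusted p of 0.05 and a smallest adjusted p of 0.491. The mean after D-PDB was higher than after PBS for 30 genes and lower for 13, with a median difference of 0.25 on the log2 scale. This split depended on the scale and on 1 tumor. It was 21 higher to 22 lower when each tumor was centred on the median of its panel genes, and 22 higher to 20 lower without D-PDB tumor 4, where the median difference was 0.0033.

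**Figure D1:**
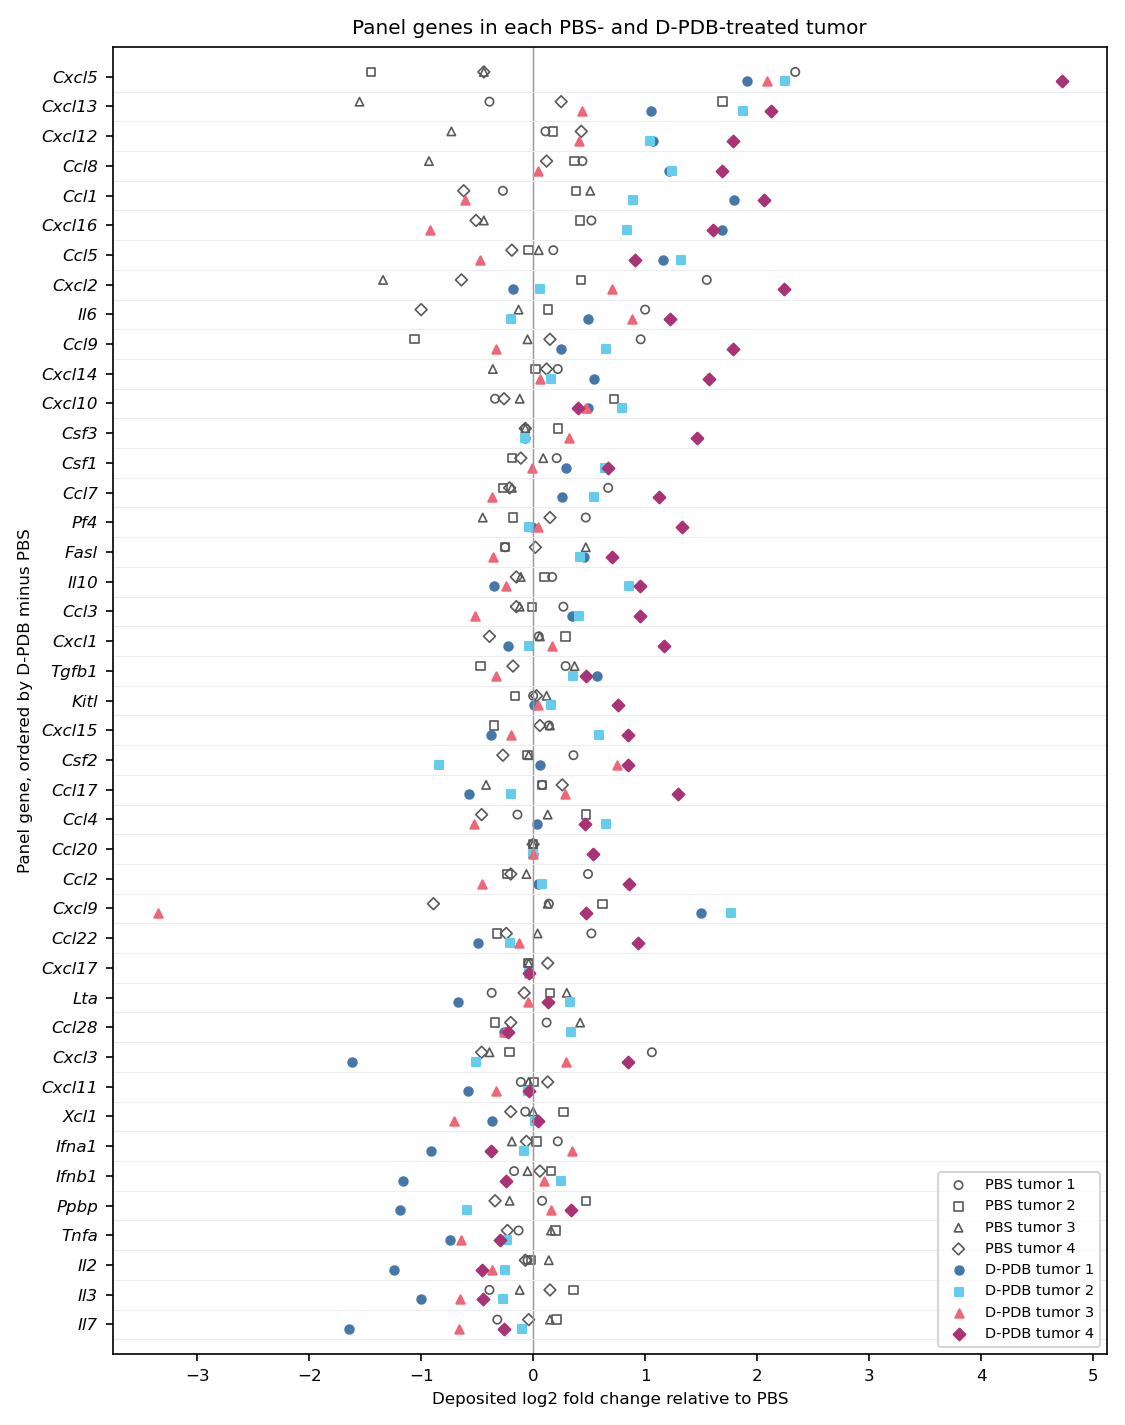
Deposited log2 fold change of the 43 panel genes (vertical axis, ordered by the difference of the group means) in each of the 4 PBS-treated (open symbols) and 4 D-PDB-treated tumors (filled symbols). Only for *Il2* do the groups not overlap, and D-PDB tumor 4 holds the highest D-PDB value for 28 genes.

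The CXCR2 ligands, which recruit neutrophils, held the gene with the highest difference of the panel, and the other members of the group had differences between -0.32 and 0.71 that varied from tumor to tumor. *Cxcl5* was at 1.91, 2.25, 2.09, and 4.72 in D-PDB tumors 1 to 4 and at 2.34, -1.45, -0.44, and -0.44 in PBS tumors 1 to 4. All 4 D-PDB values were thus well above 3 of the PBS values, but only D-PDB tumor 4 exceeded PBS tumor 1. The difference was 2.74 (standard error 0.98, 95% interval 0.63 to 4.85), a 6.68-fold higher level with an interval from 1.55- to 28.7-fold, and it did not pass the adjustment (limma, unadjusted p = 0.0147, adjusted p = 0.630). Without D-PDB tumor 4 the difference was 2.08 (limma, unadjusted p = 0.0531), and without PBS tumor 1 it was 3.52 and the groups no longer overlapped (limma, adjusted p = 0.0977, the smallest of any gene under any setting).

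*Cxcl2*, a ligand of the same receptor made early by activated macrophages, was at -0.18, 0.06, 0.70, and 2.24 after D-PDB and at 1.55, 0.43, -1.34, and -0.64 after PBS, and the difference of 0.71 was smaller than the SD within either group (1.09 and 1.26). It was 0.19 without D-PDB tumor 4, 0.26 without PBS tumor 3, and 1.22 without PBS tumor 1. *Cxcl1* was at -0.22, -0.04, 0.17, and 1.17 after D-PDB against -0.39 to 0.29 after PBS, so that only tumor 4 lay outside the PBS range. Its difference of 0.27 turned to -0.03 without that tumor. *Cxcl3* went both ways, with D-PDB tumors 1 and 2 at -1.62 and -0.51, below every PBS-treated tumor, and tumors 3 and 4 at 0.29 and 0.85, inside the PBS range of -0.46 to 1.06. For *Ppbp*, the platelet precursor of a CXCR2 ligand, tumors 1 and 2 were likewise below every PBS-treated tumor at -1.19 and -0.59, and tumors 3 and 4 were inside the PBS range. The *Ppbp* difference of -0.32 was -0.03 without tumor 1. *Cxcl15*, a chemokine best known from lung epithelium, differed by 0.22 (95% interval -0.58 to 1.01), and by 0.0033 without tumor 4. Of the 6 CXCR2 ligands, 4 had a higher and 2 a lower mean, with a median difference of 0.24 beside 0.25 over the panel, and 0 passed the adjusted threshold. Without D-PDB tumor 4 these medians were -0.01 and 0.0033.

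The promoters of *Cxcl1*, *Cxcl2*, and *Cxcl3* are shown here for their matches to a motif of the inflammatory factor NF-κB. Among the 32 panel genes with a sequence they held the most matches, and their differences ranged from -0.25 to 0.71. The RefSeq table (GRCm38.p6) held the 250 bases before the start for 32 of the 43 panel genes. *Cxcl5* and *Il7*, with the highest and the lowest difference of the panel, were among the genes without a sequence. The motif searched was GGG followed, after any 3 bases, by TTCC, on both strands and with overlapping matches included. It was present for 11 of these 32 genes, and for 5.31% of all 27025 genes of the table. The 120 bases before the start are given 5′ to 3′ on the strand of the gene, with matches on either strand in capitals.
*Cxcl1*, chr5:90891125-90891244, plus strand: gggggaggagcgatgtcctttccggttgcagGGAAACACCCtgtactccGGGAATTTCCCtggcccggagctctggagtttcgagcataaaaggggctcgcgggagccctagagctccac
*Cxcl2*, chr5:90903779-90903898, plus strand: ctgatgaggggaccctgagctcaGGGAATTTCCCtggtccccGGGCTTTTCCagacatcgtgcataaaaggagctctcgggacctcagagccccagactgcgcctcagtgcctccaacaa
*Cxcl3*, chr5:90785981-90786100, plus strand: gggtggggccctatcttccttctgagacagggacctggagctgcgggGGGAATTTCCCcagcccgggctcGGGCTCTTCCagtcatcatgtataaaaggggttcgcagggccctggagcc
Each of the 3 windows held 3 matches, and in each a pair of them overlapped on opposite strands. With such a pair counted as 1 site, they held no more sites than *Cxcl10*, which had 2 matches that did not overlap. The other genes with a match were *Ccl1*, *Ccl9*, *Ccl20*, *Csf1*, *Cxcl10*, *Ifnb1*, *Il6*, and *Kitl*. Over the 11 genes with a match the median difference between D-PDB and PBS was 0.40, with 9 higher and 2 lower, and over the 21 without one it was 0.20, with 13 higher and 8 lower. These are descriptions of the letters in the windows, and the binding of a factor was not measured.

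The remaining CXC chemokines had the highest median difference of the families. *Cxcl13*, which draws B cells through CXCR5, was at 1.05, 1.87, 0.44, and 2.12 after D-PDB and at -0.39, 1.69, -1.55, and 0.25 after PBS. D-PDB tumors 2 and 4 exceeded the whole PBS range, and the difference was 1.37 (95% interval -0.68 to 3.42; limma, adjusted p = 0.813). *Cxcl12*, the CXCR4 ligand of stromal cells, was at 1.07, 1.04, 0.41, and 1.78 after D-PDB and at 0.11, 0.18, -0.73, and 0.43 after PBS. Only D-PDB tumor 3, at 0.41, lay within the PBS range, whose top was 0.43. The difference was 1.08 (95% interval -0.22 to 2.37; limma, unadjusted p = 0.0962, adjusted p = 0.689), and with only the 8 tumors of the comparison in the fit it had an unadjusted p of 0.0145 and an adjusted p of 0.312 (limma).

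*Cxcl16*, a membrane-bound ligand of CXCR6 that is found on macrophages, was at 1.69, 0.84, -0.92, and 1.61 after D-PDB against -0.51 to 0.52 after PBS. Tumors 1, 2, and 4 were above every PBS-treated tumor and tumor 3 was below every one, and the difference was 0.81 (limma, adjusted p = 0.813). *Cxcl14*, a homeostatic chemokine of epithelium, was at 0.54, 0.16, 0.06, and 1.57 after D-PDB against -0.36 to 0.22 after PBS, a difference of 0.58 that was 0.25 without tumor 4. *Pf4*, a platelet chemokine, was inside the PBS range in tumors 1 to 3 and at 1.33 in tumor 4, and its difference of 0.33 became -0.00083 without that tumor. *Cxcl17* was at its lowest value, -0.04, in 7 of the 8 tumors, and its difference was -0.04. Of these 6 genes 5 had a higher mean, the median difference was 0.70, and 0 passed the adjusted threshold. Without D-PDB tumor 4 the median was 0.40.

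**Figure D2:**
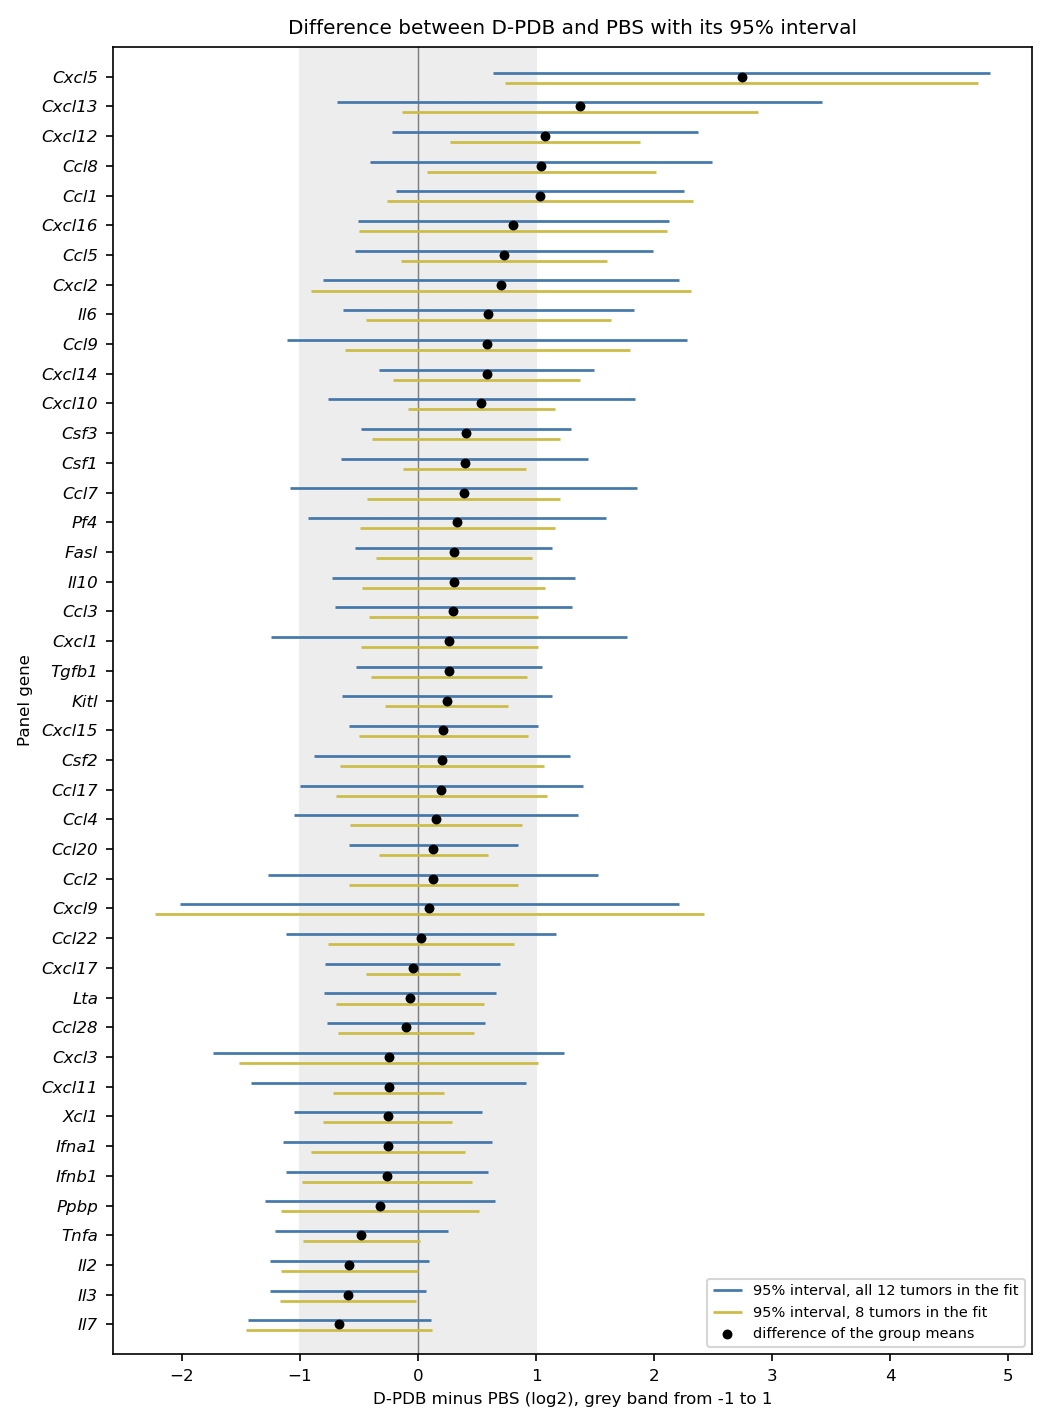
Difference between the D-PDB and PBS group means (points, log2) for the 43 genes, with the 95% interval from the fit on all 12 tumors (blue) and on the 8 D-PDB- and PBS-treated tumors (yellow). The interval of *Cxcl5* alone lies above 0 in the 12-tumor fit, and the grey band marks less than a 2-fold difference either way. In the 8-tumor fit the intervals of *Cxcl5*, *Cxcl12*, and *Ccl8* lie above 0 and that of *Il3* below.

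Among the CC chemokines, those that differed most shared the same pattern over tumors. *Ccl8*, a monocyte attractant, was at 1.21, 1.24, 0.04, and 1.69 after D-PDB and at 0.44, 0.37, -0.93, and 0.12 after PBS. Tumors 1, 2, and 4 lay above every PBS-treated tumor, tumor 3 did not, and the difference was 1.04 (95% interval -0.40 to 2.49; limma, adjusted p = 0.813). With only the 8 tumors of the comparison in the fit, the 95% interval was 0.07 to 2.02 (limma, adjusted p = 0.389). *Ccl1*, a CCR8 ligand that acts on regulatory T cells, was at 1.79, 0.89, -0.61, and 2.06 after D-PDB against -0.27, 0.38, 0.51, and -0.62 after PBS. The same 3 tumors were again above the PBS range, and the difference was 1.03 (95% interval -0.19 to 2.25; limma, adjusted p = 0.689). Without D-PDB tumor 3 it was 1.58 (limma, unadjusted p = 0.00622, adjusted p = 0.268).

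*Ccl5*, a T cell and monocyte chemokine, was at 1.16, 1.32, -0.47, and 0.91 after D-PDB. The PBS-treated tumors were between -0.19 and 0.18, which placed tumors 1, 2, and 4 above and tumor 3 below all of them, and the difference was 0.73 (95% interval -0.53 to 1.99). *Ccl3*, an inflammatory chemokine of macrophages, showed the same split at a smaller size, with 0.35, 0.41, -0.52, and 0.95 against -0.15 to 0.27, and differed by 0.30, or by 0.08 without tumor 4. *Ccl4*, a chemokine that is usually induced with *Ccl3*, differed by 0.15, with only D-PDB tumor 2 at 0.65 above the PBS range and tumor 3 at -0.53 below it. *Ccl9*, a CCR1 ligand, was at 0.25, 0.65, -0.33, and 1.78 against -1.06 to 0.96, and its difference of 0.59 became 0.19 without tumor 4.

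The monocyte chemoattractant *Ccl2* lay within the PBS range in tumors 1 and 2, below it in tumor 3, and above it in tumor 4. Its values were 0.04, 0.08, -0.46, and 0.86 after D-PDB and 0.49, -0.23, -0.06, and -0.20 after PBS. The difference of 0.13 (95% interval -1.27 to 1.53) turned to -0.11 without tumor 4. *Ccl7*, which shares the receptor CCR2, was at 0.26, 0.54, -0.37, and 1.12 against -0.27 to 0.67 and differed by 0.39, or by 0.14 without tumor 4. *Ccl17* and *Ccl22*, the CCR4 ligands of dendritic cells and macrophages, differed by 0.20 and 0.03. Both were above the PBS range in D-PDB tumor 4, at 1.29 and 0.94, and both had a negative difference without it (-0.16 and -0.28). The 3 CCR2 ligands and the 3 CCR4 and CCR8 ligands measured each had a higher mean, with group medians of 0.39 and 0.20. Without D-PDB tumor 4 these medians were 0.14 and -0.16. 0 of these 6 genes passed the adjusted threshold in limma.

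The CXCR3 ligands, which interferon induces and which draw T cells and NK cells, did not move together. *Cxcl10* was the most uniform of them after D-PDB, at 0.49, 0.79, 0.47, and 0.40, with an SD of 0.17. The PBS-treated tumors were at -0.34, 0.72, -0.12, and -0.26, so that the carrier tumors lay above 3 of the 4, and only PBS tumor 2 kept the groups from separating. The difference was 0.54 (95% interval -0.76 to 1.84; limma, adjusted p = 0.831), and -0.09 to 1.16 was its interval with only the 8 tumors in the fit.

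*Cxcl9* spread more widely than any other gene after D-PDB, at 1.5, 1.77, -3.35, and 0.47, against 0.14, 0.62, 0.13, and -0.89 after PBS. Tumors 1 and 2 lay above and tumor 3 below the whole PBS range. The difference of 0.10 had an interval of -2.02 to 2.21, wide enough to hold a 4-fold change either way, and it was 1.25 without tumor 3 (limma, unadjusted p = 0.0848). *Cxcl11* was at -0.58, -0.05, -0.33, and -0.04 after D-PDB against -0.11 to 0.13 after PBS, a difference of -0.25. It kept a negative sign whichever tumor was left out, between -0.32 and -0.14.

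The type I interferon genes had a slightly lower mean on the panel after the carrier. The paper's quantitative PCR covered more B16.F10 tumors in each group at the same time point. There it reports increased *Ifnb1* after free D-PDB, though less than after NanoISD. *Ifnb1*, an interferon that STING signaling induces, was at -1.16, 0.25, 0.10, and -0.24 after D-PDB and at -0.17, 0.16, -0.05, and 0.06 after PBS. Tumors 1 and 4 were below and tumor 2 above every PBS-treated tumor. The difference was -0.26 (95% interval -1.12 to 0.59; limma, adjusted p = 0.831), and it was 0.04 without tumor 1. *Ifna1* was at -0.91, -0.08, 0.35, and -0.38 against -0.19 to 0.22, again with tumor 1 lowest, and differed by -0.26 (95% interval -1.14 to 0.63). A 2-fold rise lay outside the interval of both genes, whereas a 2-fold fall lay inside it. With only the 8 tumors in the fit, both intervals lay within a 2-fold change (-0.98 to 0.46 and -0.91 to 0.40).

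The 3 lowest differences were those of *Il7*, *Il3*, and *Il2*. *Il2*, the T cell growth factor, was at -1.24, -0.25, -0.37, and -0.46 after D-PDB and at -0.05, -0.02, 0.14, and -0.07 after PBS. All 4 D-PDB-treated tumors lay below all 4 PBS-treated tumors, which was true of 1 of 43 genes (2.33%), while 0 genes (0%) were higher without overlap. The difference was -0.58 (standard error 0.31, 95% interval -1.25 to 0.09), a level 0.669 times that of the PBS-treated tumors (limma, unadjusted p = 0.0853, adjusted p = 0.689; two-sided exact permutation test, p = 0.0286, the smallest that this design can give). Under the exact permutation test, chance separates a gene in either direction with a probability of 0.0286. The share of 1 in 43 genes is thus no more than chance gives. The *Il2* groups were also separated with each house-keeping gene left out and after centring. Leaving out single tumors cannot make separated groups overlap, so it adds nothing on this point. The *Il2* difference then ranged from -0.69 to -0.36. The 120 bases before its start, shown as those of the gene with separated groups, held no match to the motif above.
*Il2*, chr3:37125955-37126074, minus strand: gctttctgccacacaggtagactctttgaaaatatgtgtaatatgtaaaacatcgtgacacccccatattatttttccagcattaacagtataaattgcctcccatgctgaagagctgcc

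*Il3*, a T cell and mast cell product that stimulates hematopoietic progenitors, was at -1, -0.27, -0.65, and -0.45 after D-PDB and at -0.39, 0.36, -0.12, and 0.15 after PBS. D-PDB tumors 1, 3, and 4 were below every PBS-treated tumor and tumor 2 was not. The difference was -0.59 (95% interval -1.25 to 0.07; limma, unadjusted p = 0.0742, adjusted p = 0.689), and it was between -0.72 and -0.46 with single tumors left out. With only the 8 tumors of the comparison in the fit, the 95% interval was -1.17 to -0.02 (limma, adjusted p = 0.389). *Il7*, a stromal survival factor of lymphocytes, had the lowest difference of the panel. Its values were -1.64, -0.10, -0.66, and -0.26 after D-PDB and -0.32, 0.21, 0.15, and -0.04 after PBS. Tumors 1 and 3 lay below the PBS range, and the difference of -0.66 (95% interval -1.44 to 0.11; limma, adjusted p = 0.689) was -0.34 without tumor 1.

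*Xcl1*, the T and NK cell chemokine that attracts cross-presenting dendritic cells, was at -0.37, 0.02, -0.71, and 0.04 against -0.20 to 0.27, a difference of -0.26 (95% interval -1.05 to 0.54). *Lta*, which encodes lymphotoxin, differed by -0.07 and *Fasl*, a death ligand of cytotoxic lymphocytes, by 0.31, and for both genes the groups overlapped. Whether these transcripts were near the detection limit cannot be read from the deposited values.

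The inflammatory cytokines *Il6* and *Tnf*, listed as *Tnfa*, went in opposite directions. *Il6* was at 0.49, -0.20, 0.88, and 1.22 after D-PDB against 1, 0.13, -0.13, and -1 after PBS, so that only tumor 4 exceeded the PBS range, and the difference was 0.60 (95% interval -0.64 to 1.83; limma, adjusted p = 0.831). *Tnfa* was at -0.74, -0.23, -0.64, and -0.30 after D-PDB and at -0.13, 0.20, 0.16, and -0.23 after PBS. Tumors 1, 3, and 4 were below every PBS-treated tumor, and tumor 2 was level with the lowest of them. The difference was -0.48 (95% interval -1.21 to 0.25; limma, unadjusted p = 0.182, adjusted p = 0.813), it was between -0.56 and -0.39 with single tumors left out, and a 2-fold rise lay outside its interval. *Il10*, an anti-inflammatory cytokine, was split into a pair of tumors above the PBS range (tumors 2 and 4, at 0.86 and 0.95) and a pair below it (tumors 1 and 3, at -0.35 and -0.24), with a difference of 0.30 that was 0.09 without tumor 4. *Tgfb1*, an immunosuppressive cytokine, differed by 0.27 (95% interval -0.52 to 1.05).

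The colony-stimulating factors, which drive the differentiation of myeloid cells, had small positive differences. *Csf1*, the macrophage growth factor, was at 0.29, 0.64, -0.01, and 0.67 against -0.19 to 0.21, with tumors 1, 2, and 4 above the PBS range, and differed by 0.40 (95% interval -0.65 to 1.44). *Csf2* was at 0.06, -0.84, 0.75, and 0.85 and differed by 0.20 with no common direction. *Csf3*, the neutrophil growth factor, was at its lowest value of -0.07 in 5 of the 8 tumors and at 0.32 and 1.46 in D-PDB tumors 3 and 4, and the difference of 0.41 was 0.06 without tumor 4. *Kitl*, which encodes stem cell factor, was at 0.01, 0.16, 0.04, and 0.76 and differed by 0.24, or by 0.07 without tumor 4. 0 of these genes passed the adjusted threshold in limma.

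A gene was described as flat only where the 95% interval of its difference lay between -1 and 1, which leaves out a 2-fold change either way. In the fit of all 12 tumors this held for 4 genes. *Ccl28*, a mucosal chemokine, was at -0.26, 0.34, -0.26, and -0.22 after D-PDB and at 0.12, -0.34, 0.42, and -0.20 after PBS, with a difference of -0.10 (95% interval -0.77 to 0.57). *Lta* was at -0.67, 0.33, -0.05, and 0.13 after D-PDB and at -0.37, 0.15, 0.30, and -0.08 after PBS, with an interval of -0.80 to 0.67. The other 2 were *Cxcl17* and *Ccl20*, each at a shared lowest value in 7 of the 8 tumors. Whether this value is a background threshold is not known, and a change below one could not be seen. *Ccl20*, the CCR6 ligand, was at 0 in all PBS-treated tumors and in D-PDB tumors 1 to 3, and at 0.53 in tumor 4.

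The number of flat genes depended on which tumors estimated the spread. The median half-width of the intervals was 1.08 in the joint fit, which includes the NanoISD-treated tumors. With only the 8 D-PDB- and PBS-treated tumors it was 0.77, and 17 genes were flat. These 17 included the 4 above and added *Csf1*, *Fasl*, *Tgfb1*, *Kitl*, *Cxcl15*, *Ccl4*, *Ccl2*, *Ccl22*, *Cxcl11*, *Xcl1*, *Ifna1*, *Ifnb1*, and *Tnfa*. A 2-fold fall lay outside the interval of 26 genes in the joint fit and 37 in the smaller one, and a 2-fold rise outside that of 13 and 21 genes. For 8 genes in the joint fit neither a 2-fold rise nor a 2-fold fall lay outside the interval.

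The D-PDB-treated tumors differed from each other more than the PBS-treated tumors did. The SD over tumors was larger after D-PDB for 35 of the 43 genes, with a median of 0.62 against 0.33. The difference in spread was not tested. In D-PDB tumor 4, 27 genes lay above all 4 PBS-treated tumors and 5 below, and its panel mean was 0.86. In tumor 3, 4 genes lay above and 15 below, with a panel mean of -0.12. Tumor 1 had 10 above and 15 below, with a mean of 0.04, and tumor 2 had 16 above and 4 below, with a mean of 0.34. The panel means of the PBS-treated tumors were between -0.15 and 0.22. Set against the other 3, PBS tumors 1 to 4 had 18, 12, 8, and 4 genes above and 6, 10, 8, and 15 below. These counts have a reference of 3 tumors, and those after D-PDB a reference of 4.

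**Figure D3:**
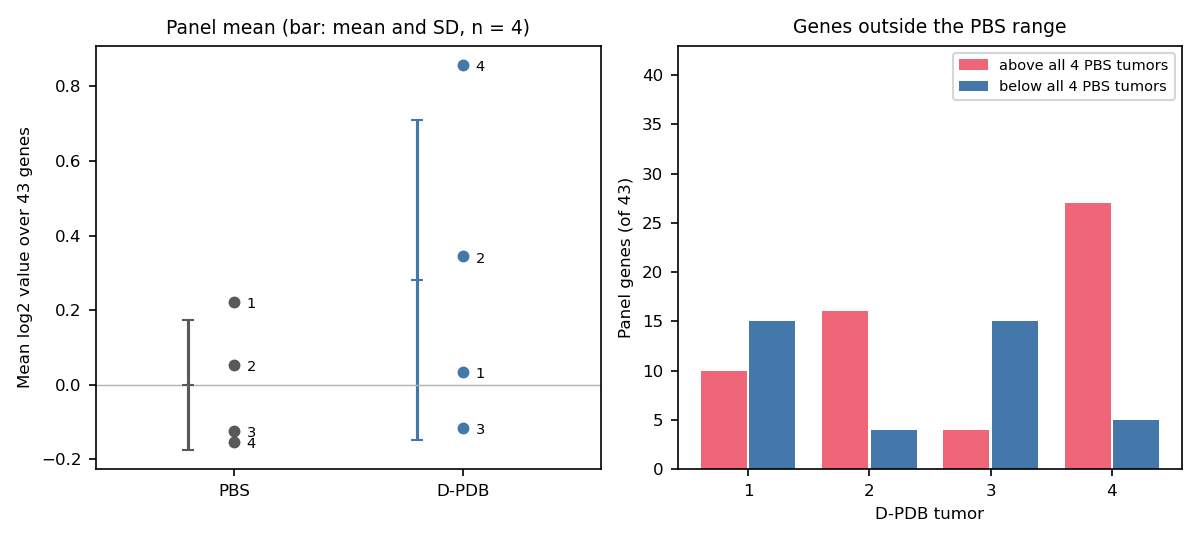
Left, mean log2 value over the 43 genes in each PBS- and D-PDB-treated tumor (points, numbered), with the group mean and SD (n = 4). Right, number of genes in each D-PDB-treated tumor above or below all 4 PBS-treated tumors, with 27 above in tumor 4 and 15 below in tumors 1 and 3. Not drawn are the PBS-treated tumors against the other 3, which had 4 to 18 genes above and 6 to 15 below.

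For 7 of the 43 genes exactly 3 of the 4 D-PDB values exceeded every PBS value. They were *Ccl1*, *Ccl3*, *Ccl5*, *Ccl8*, *Csf1*, *Cxcl12*, and *Cxcl16*, and in all 7 the exception was tumor 3. Leaving out tumor 3 therefore had to separate these 7 genes, against 0 genes higher without overlap when it was kept. Tumor 1 in turn held the lowest value of its group for 18 genes, among them *Il2*, *Il3*, *Il7*, *Ifna1*, *Ifnb1*, *Ppbp*, *Tnfa*, and *Cxcl3*. Tumor 3 held the lowest value for nearly as many, 17 genes. The sign of the difference was kept whichever of the 8 tumors was left out for 29 of the 43 genes, 21 of them higher and 8 lower. The 8 lower genes were *Cxcl11*, *Xcl1*, *Ifna1*, *Ppbp*, *Tnfa*, *Il2*, *Il3*, and *Il7*.

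Set beside the NanoISD-treated tumors, which are scaled to the same PBS-treated tumors, the D-PDB-treated tumors had the lower mean for 42 of the 43 genes. In limma, 11 of 43 genes were higher after NanoISD than after D-PDB at an adjusted p of 0.05 (25.6%). *Cxcl10* was at 0.54 ± 0.17 (SD, n = 4) after D-PDB and 3.99 ± 1.53 (SD, n = 4) after NanoISD, a difference of 3.46 (limma, adjusted p = 0.00252), and *Il6* was at 0.60 ± 0.61 and 3.68 ± 1.11 (limma, adjusted p = 0.00252). *Ifna1*, negative after D-PDB at -0.26 ± 0.53, was at 1.42 ± 0.77 after NanoISD (limma, adjusted p = 0.0140). *Ifnb1* was at -0.26 ± 0.63 and 0.65 ± 0.62 and did not pass the threshold (limma, adjusted p = 0.0952). The 6 genes with the highest difference between D-PDB and PBS also had higher means after NanoISD, and 0 of them passed the threshold between both treatments. In the same order of treatments, *Cxcl5* was at 2.74 ± 1.33 and 5.47 ± 1.83 (difference 2.73; limma, adjusted p = 0.0516). *Cxcl13* was at 1.37 ± 0.77 and 3.08 ± 2.22 (difference 1.71; limma, adjusted p = 0.169), and *Ccl8* at 1.04 ± 0.71 and 2.29 ± 1.57 (difference 1.25; limma, adjusted p = 0.159). *Cxcl12* was at 1.08 ± 0.56 and 1.68 ± 1.42 (difference 0.61; adjusted p = 0.408), *Ccl1* at 1.03 ± 1.20 and 1.53 ± 0.69 (difference 0.50; adjusted p = 0.458), and *Cxcl16* at 0.81 ± 1.21 and 0.96 ± 0.96 (difference 0.15; adjusted p = 0.83). *Il3* had a negative mean after both, at -0.59 ± 0.31 and -0.38 ± 0.20 (difference 0.22; adjusted p = 0.553). A p above the threshold does not show that carrier and loaded carrier acted alike on these genes.

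**Figure D4:**
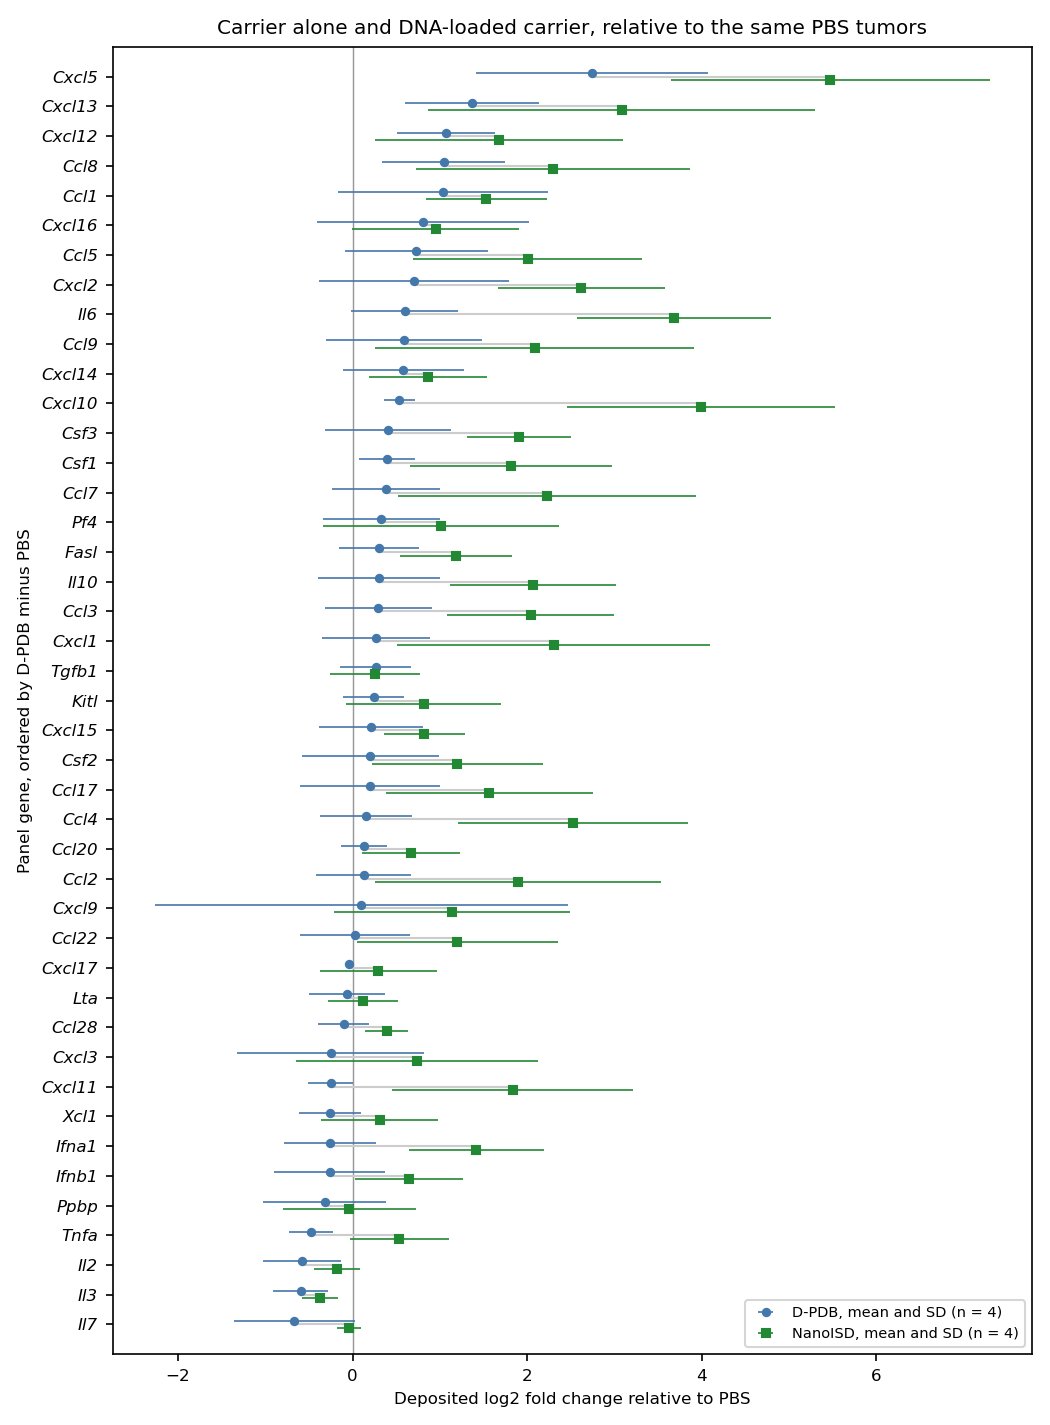
Mean and SD (n = 4) of the log2 fold change after D-PDB (circles) and after NanoISD (squares) for the 43 genes, both relative to the same 4 PBS-treated tumors. *Cxcl10* and *Il6* lie at 0.54 and 0.60 after D-PDB and at 3.99 and 3.68 after NanoISD, whereas *Cxcl16* and *Tgfb1* lie at nearly the same level after both.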

How the data were processed

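RNA of each tumor (100 ng) was hybridized by the authors to the panel's barcodes, read on a NanoString nCounter MAX instrument, and processed in nSolver, whose version and background threshold are not given in the sources used here. The deposited values are log2 fold changes with 2 decimals. For every gene the mean over PBS-treated tumors is 0 to within 0.0025, and for every tumor that over house-keeping genes is 0 to within 0.002. The values were used without pseudocount, filter, or rescaling. No depth is known, and the number of tumors limits the precision. Of 48 names, 47 matched a RefSeq symbol (GRCm38.p6) and *Tnfa* matched as a synonym of *Tnf*.

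Tumors were grouped by their labels, which number them as replicates. The difference of each gene between D-PDB and PBS was tested with limma 3.58.1 in R 4.3.3 (lmFit and eBayes, 12 tumors, 3 treatments, 95% intervals), with Benjamini-Hochberg adjustment over 43 genes. Fits and the exact permutation test (70 splits) were tested on simulated data. Python 3.11.15, numpy 2.4.6, pandas 2.3.3, scipy 1.17.1, and matplotlib 3.10.9 were used otherwise. All panel genes are named. Genes with an unadjusted p under 0.05, without overlap, or with the narrowest intervals are given for every tumor. Genes with the highest or lowest differences and those that carry a comparison of families are given by tumor, range, or difference. The members, gene families, and tests were chosen with earlier results of these data known. No marker list could be applied, since none of its genes is on the panel, and no gene of the listed CCR3 and CCR7 ligands or type II interferon was measured. The summary of 1 further ligand family is not reported here.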

Additional observations from a re-analysis of the deposited data

Results flagged for a closer look

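Each gene and the panel mean were searched in both groups for a single tumor far from the other 3, by the gap to its neighbor over the range of the 4 tumors. Of 88 groups searched, 8 exceeded Dixon's 95% critical value, and chance gives 1 in 20, or 4.4.

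In the D-PDB-treated tumors, tumor 4 stood apart for *Cxcl5* (4.72, the others 1.91 to 2.25, gap 0.879), *Pf4* (1.33, the others -0.04 to 0.04, gap 0.942), and *Ccl20* (0.53, the others at 0, gap 1). Tumor 2 stood apart for *Ccl28* (0.34, the others -0.26 to -0.22, gap 0.933). In the PBS-treated tumors, tumor 1 stood apart for *Ccl7* (0.67, the others -0.27 to -0.19, gap 0.915) and *Cxcl3* (1.06, the others -0.46 to -0.21, gap 0.836), tumor 2 for *Csf3* (0.22, the others at -0.07, gap 1), and tumor 4 for *Cxcl17* (0.13, the others at -0.04, gap 1). For *Ccl20*, *Csf3*, and *Cxcl17* the other tumors share the lowest value of the gene, so a gap of 1 follows from any value above it.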

How the results depend on the processing

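The absence of calls at an adjusted p of 0.05 in limma held under every alternative fitted, with a smallest adjusted p of 0.0977. The count of genes at an unadjusted p of 0.05 (1 higher, 0 lower) was 3 higher and 1 lower with only the 8 tumors of the comparison in the fit, 5 and 1 with array weights, 1 and 3 with each tumor centred on its panel median, and 0 and 1 in the exact permutation test. It was 0 to 3 higher and 0 to 1 lower with single tumors left out, 0 higher without D-PDB tumor 4 and 3 without D-PDB tumor 3. Flat genes numbered 4, but 17 with the 8 tumors, 18 with array weights, 18 after centring, 2 without the 3 genes at a shared lowest value, and 3 to 8 with single tumors left out (8 without D-PDB tumor 1). Genes with a lower mean numbered 13, but 22 after centring and 11 to 20 with single tumors left out (20 without D-PDB tumor 4). Genes without overlap were 0 higher and 1 lower. This became 2 lower without *Gapdh*, *Gusb*, *Hdac3*, or *Rpl19* in the scale and after centring (*Il2* and *Tnfa*), 1 higher without *Hdac3* (*Cxcl12*), and 2 higher without *Tbp* (*Cxcl12* and *Ccl20*). With single tumors left out it was 0 to 7 higher (7 without D-PDB tumor 3) and 1 to 3 lower (3 without D-PDB tumor 2 or PBS tumor 1). Leaving out a tumor can add separated genes but cannot take any away.

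The sign of the difference turned for 15 genes under at least 1 alternative. After centring it was -0.0525 for *Ccl17*, -0.12 for *Ccl2*, -0.12 for *Ccl20*, -0.23 for *Ccl22*, -0.10 for *Ccl4*, -0.0475 for *Csf2*, -0.0375 for *Cxcl15*, -0.16 for *Cxcl9*, and -0.0075 for *Kitl*. Array weights gave -0.0181 for *Ccl22* and 0.00194 for *Ccl28*, and leaving out *Gapdh* gave -0.00875 for *Ccl22*. With single tumors left out, the difference ranged from -0.61 to 0.21 for *Cxcl3*, -0.46 to 1.25 for *Cxcl9*, -0.43 to 0.0367 for *Ifnb1*, -0.20 to 0.14 for *Lta*, -0.0133 to 0.38 for *Ccl4*, -0.16 to 0.46 for *Ccl17*, -0.11 to 0.33 for *Ccl2*, -0.28 to 0.20 for *Ccl22*, -0.01 to 0.55 for *Csf2*, -0.0325 to 0.43 for *Cxcl1*, -0.00083 to 0.49 for *Pf4*, and -0.25 to 0.04 for *Ccl28*. The cause was not tested.

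Tumors with the same number did not deviate together (r between -0.52 and 0.47 over genes, above 0.1 for 3 of 12 same-numbered pairs), so the numbers were not taken to pair the tumors. With the replicate block, 1 gene was higher and 0 lower at an unadjusted p of 0.05 and the median difference stayed at 0.25.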
